A study of Mus musculus with 6 samples.

Results

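The genes described here encode nuclear subunits of the mitochondrial respiratory chain and of ATP synthase in mouse regulatory T (Treg) cells with and without the transcription factor Batf. They were chosen by name alone, as probe sets annotated to exactly 1 gene whose symbol begins with Nduf followed by a, b, c, s or v and a digit, with Uqcr, with Cox and a digit from 4 to 8, or with Atp5, or is Sdha, Sdhb, Sdhc or Sdhd. This gave 164 probe sets of 81 genes, out of 34945 probe sets of 18193 genes. By complex these were 35 genes of complex I, 4 of complex II, 8 of complex III, 17 of complex IV and 17 of ATP synthase. A further 9 probe sets that the annotation assigns to such a gene together with another gene were left out.

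RNA of Treg cells was measured on 6 arrays, 3 for Batf+/+ and 3 for Batf-/- cells. Mice of both genotypes were of the C57BL/6 strain and carried FoxP3hCD2, a reporter that puts human CD2 on cells expressing Foxp3, and CD4+ cells positive for human CD2 were isolated from lymph node and spleen without culture or treatment. The labels give Batf-/- as the genotype of the whole mouse, so other cells of those mice carried it too, and they give no age and no count of mice behind an array. If the arrays of a genotype did not come from separate mice, the p-values reflect only how much these samples varied, and that variation may be technical. Every level below is a log2 value, with the middle of the 3 Batf+/+ arrays set to 0 for each probe set. A level therefore shows how an array differed for the same gene and not how abundant the transcript was, so genes cannot be ranked by level and the presence of Treg markers in these cells cannot be read from the values.

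The respiratory chain sits in the inner mitochondrial membrane. Complex I takes electrons from NADH and complex II from succinate, complex III passes them through cytochrome c to complex IV, which reduces oxygen, and ATP synthase uses the resulting proton gradient to make ATP. Treg cells are known to rely on mitochondrial respiration more than conventional effector T cells do, and Batf has been studied in T cells as a partner of Jun and Irf4 proteins at AP-1 type DNA sites. Most subunits are encoded in the nucleus, and their promoters are known for sites of the factors NRF1, GABP (an ETS family factor) and YY1.

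Promoter sequences are shown for 5 members that represent the patterns described below. All but that of Cox7c carry letters of the sites this gene family is known for. Ndufa6 has the highest genotype difference, Sdhd has sites for 2 factors, and Uqcrc1 is the lowest member of complex III. Cox7c has the widest spread over arrays, and Atp5b is the catalytic subunit of ATP synthase. Each runs 5′ to 3′ on the gene's strand from 250 bases before to 50 bases after the start, as RefSeq gives it for GRCm38.p6. Capitals mark matches to GCGCANGCG (NRF1), CCGGAAG (ETS), AANATGGCG (YY1) and TGANTCA (AP-1), searched on both strands.
Ndufa6: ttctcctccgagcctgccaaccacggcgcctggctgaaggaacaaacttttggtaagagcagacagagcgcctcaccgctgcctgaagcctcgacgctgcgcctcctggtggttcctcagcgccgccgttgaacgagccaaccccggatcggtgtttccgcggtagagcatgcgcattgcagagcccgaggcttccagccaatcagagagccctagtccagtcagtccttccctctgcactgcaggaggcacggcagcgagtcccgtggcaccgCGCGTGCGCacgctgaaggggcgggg
Sdhd: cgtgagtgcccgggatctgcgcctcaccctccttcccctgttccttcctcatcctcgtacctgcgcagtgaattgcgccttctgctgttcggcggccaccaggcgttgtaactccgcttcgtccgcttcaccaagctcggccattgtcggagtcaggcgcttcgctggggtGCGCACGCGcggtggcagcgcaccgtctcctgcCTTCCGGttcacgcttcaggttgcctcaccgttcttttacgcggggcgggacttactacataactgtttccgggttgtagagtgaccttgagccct
Uqcrc1: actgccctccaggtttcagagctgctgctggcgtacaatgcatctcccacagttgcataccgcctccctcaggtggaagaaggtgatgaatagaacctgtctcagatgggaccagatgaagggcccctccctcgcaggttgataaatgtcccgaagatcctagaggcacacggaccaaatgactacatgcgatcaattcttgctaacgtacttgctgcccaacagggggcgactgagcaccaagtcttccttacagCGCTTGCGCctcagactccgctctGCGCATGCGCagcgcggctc
Cox7c: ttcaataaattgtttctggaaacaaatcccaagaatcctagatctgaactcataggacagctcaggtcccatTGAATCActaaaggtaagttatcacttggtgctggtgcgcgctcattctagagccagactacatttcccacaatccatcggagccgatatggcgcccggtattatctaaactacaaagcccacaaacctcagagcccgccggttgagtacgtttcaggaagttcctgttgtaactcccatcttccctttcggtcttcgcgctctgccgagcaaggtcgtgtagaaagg
Atp5b: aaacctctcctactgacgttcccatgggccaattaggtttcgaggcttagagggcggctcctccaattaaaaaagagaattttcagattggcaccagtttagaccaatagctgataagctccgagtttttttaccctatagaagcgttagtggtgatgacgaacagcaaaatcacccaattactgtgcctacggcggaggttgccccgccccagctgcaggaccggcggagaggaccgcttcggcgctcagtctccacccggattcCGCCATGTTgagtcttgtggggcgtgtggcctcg
The Ndufa6 window lies at chr15:82354242-82354541 on the minus strand, the Sdhd window at chr9:50603800-50604099 on the minus strand, the Uqcrc1 window at chr9:108936398-108936697 on the plus strand, the Cox7c window at chr13:86046746-86047045 on the minus strand and the Atp5b window at chr10:128083057-128083356 on the plus strand. All 81 genes matched RefSeq by identifier, and 66 of them had 71 such windows. The NRF1 letters occurred in 19 of the 71 windows (26.8%, against 6.25% of 32851 windows of all genes), the ETS letters in 17 (23.9% against 8.86%) and the YY1 letters in 9 (12.7% against 2.38%). At least 1 of these 3 was present in 38 windows (53.5% against 15.4%). The AP-1 letters, the kind of site Batf is known to bind, were in 7 windows (9.86% against 7.81%), among them that of Cox7c. Matches of different motifs overlapped in 0 cases in the members' windows. These are matches of letters, and binding was not measured here.

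Batf itself followed the genotype labels. Its level was -0.13, 0 and 0.14 on the Batf+/+ arrays numbered 1, 2 and 3 and -3.13, -3.16 and -2.37 on the Batf-/- arrays, so all 3 Batf-/- arrays were far lower (difference -2.89 ± 0.19 SE, with 3 arrays in each group and a limma adjusted p of 0.000202). Where its probe set lies relative to the deletion was not examined. Foxp3, which defines Treg cells, had levels of 0.041, 0 and -0.15 in Batf+/+ cells and of -0.15, -0.16 and -0.16 in Batf-/- cells (-0.12, limma adjusted p = 0.892), the latter all lower. Of 7 markers of Treg and CD4 T cells 0 were called, where 1.14% of all genes were. An unadjusted p below 0.05 was found for 2 of them (Il2ra and Ikzf2), against 7.69% of all genes. In 4 of the 7 the arrays did not overlap (57.1%, against 12% of all genes). Ikzf2, named after its value was seen, was lowest at -0.51 (limma adjusted p = 0.0526; called with array weights). Of 2, 5, 7, 3, 3 and 5 measured markers of CD8 T, B, myeloid, NK and erythroid cells and of stroma 0 were called. In that order 0, 1, 0, 1, 0 and 1 had an unadjusted p below 0.05, where 7.69% of all genes did.

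No respiratory chain or ATP synthase gene differed between Batf-/- and Batf+/+ Treg cells past the threshold. By limma with Benjamini-Hochberg adjustment over all genes, 0 of the 81 members were called at an adjusted p below 0.05, where 208 of all 18193 genes were (1.14%; 0.83% lower and 0.313% higher in Batf-/- cells). The lowest adjusted p among the members was 0.430. At an unadjusted p below 0.05 there was 1 member, Cox7a1, against 7.69% of all genes. With the array number as a replicate block 0 members were called as well, against 1.61% of all genes. There, 3 had an unadjusted p below 0.05 (12.5% of all genes), which were Cox7a1, Ndufa6 and Cox6b2. With array weights 0 were called (1.52% of all genes) and 1 had an unadjusted p below 0.05 (10.4% of all genes).

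The members lay close to 0 on either side. Their log2 differences ran from -0.22 (Cox7a1) to 0.19 (Ndufa6), with 41 above 0 and 40 below and a median of 0.00045. The median over all genes was 0.0047. Their quartiles were -0.033 and 0.036, and those of all genes -0.061 and 0.070. A p above the threshold does not show equal levels, so the 95% intervals are the measure of what the arrays could see. In 80 of the 81 members the whole interval lay inside a 1.5-fold change in either direction (95.3% of all genes), and in 53 it lay inside a 1.2-fold change (65.4%, against 39.8% of all genes). The exception at 1.5-fold was Cox7c, with an interval of -0.48 to 0.61. These intervals are from the fit without the array number. With the replicate block, the interval of Cox7c was -0.14 to 0.28, and those of all 81 members lay inside 1.5-fold (96.9% of all genes) and of 74 inside 1.2-fold (59.2% of all genes).

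**Figure D1:**
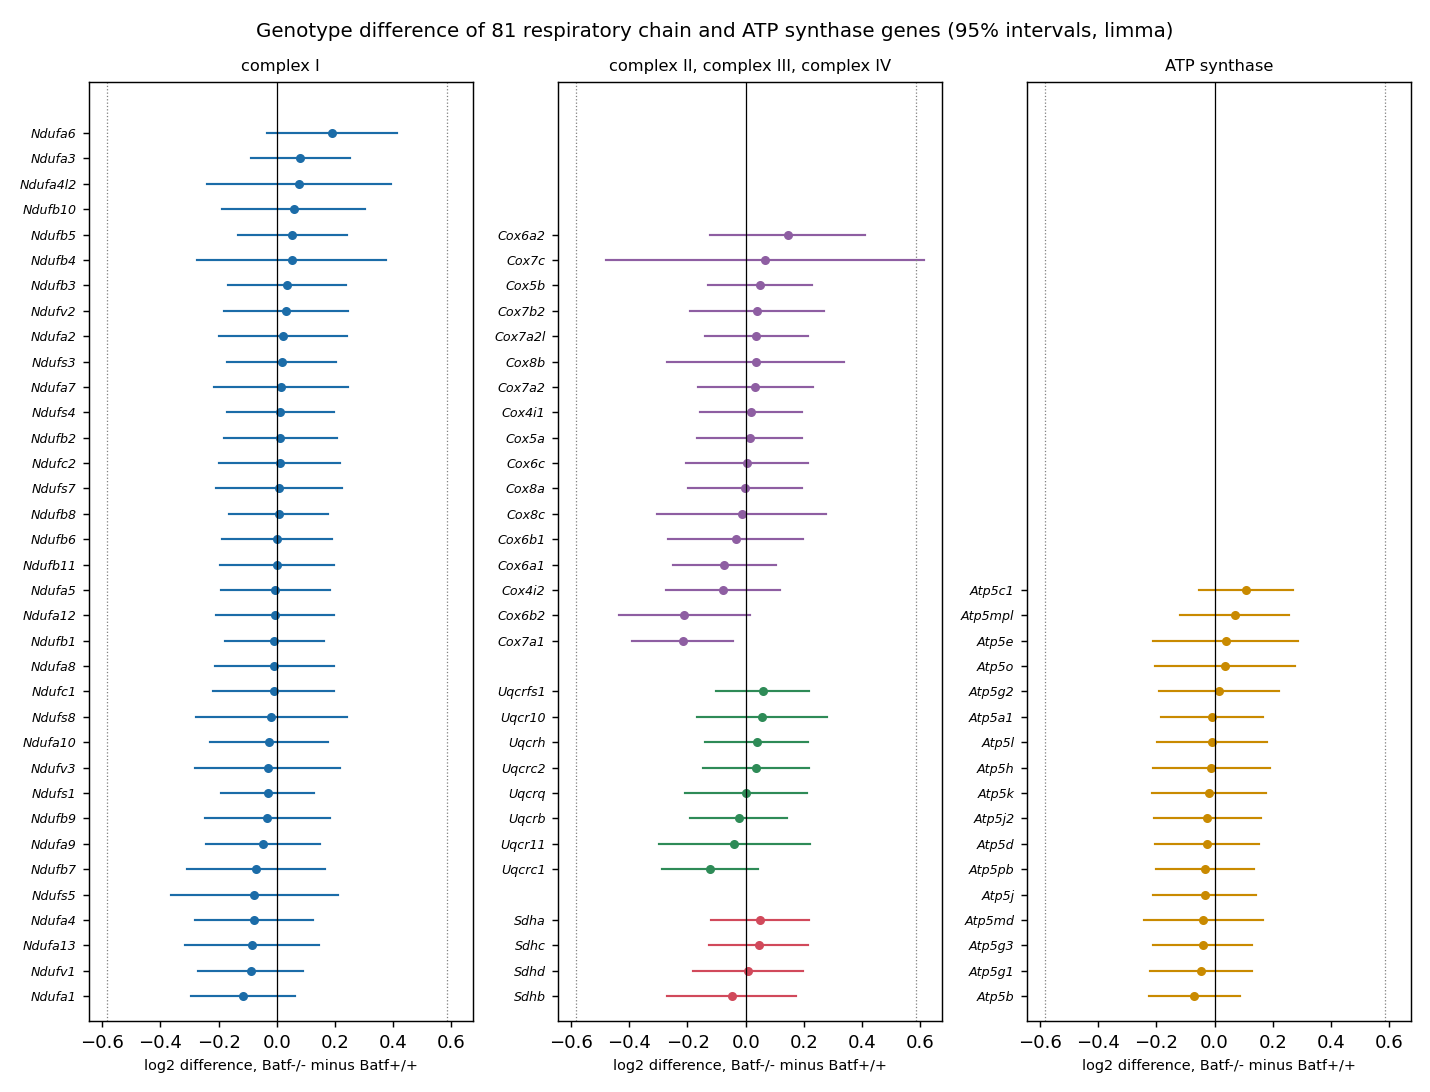
Log2 difference between Batf-/- and Batf+/+ Treg cells (horizontal axis) for each of the 81 genes (rows), by complex. Points are limma estimates from 3 arrays per genotype, bars are 95% intervals, and dotted lines mark a 1.5-fold change either way. Only the interval of Cox7c crosses a dotted line, and only that of Cox7a1 leaves out 0.

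Complex I, the NADH dehydrogenase and the largest of the complexes, had 18 members above 0 and 17 below, with a median log2 difference of 0.00045. Its 6 measured core subunits, most of which carry the flavin or iron-sulphur clusters that pass electrons to ubiquinone, ran from -0.090 (Ndufv1) to 0.033 (Ndufv2). Ndufv1, the NADH-binding subunit, had levels of 0, -0.042 and 0.13 on the Batf+/+ arrays and of -0.068, -0.12 and 0.0055 on the Batf-/- arrays, so the genotypes overlapped (difference -0.090 ± 0.080 SE, limma adjusted p = 0.978). Among its 3 probe sets, 1415967_at (-0.13) was lower on all Batf-/- arrays than on all Batf+/+ arrays, while 1415966_a_at (-0.086) overlapped. Ndufs1, the largest core subunit, gave 0.054, -0.015 and 0 against 0.0087, -0.055 and -0.0077, with a difference of -0.031 ± 0.070 and a 95% interval of -0.19 to 0.13. The ranges overlapped, although each Batf-/- array lay below the Batf+/+ array of its number.

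The 29 other members named after complex I, most of which surround the core and serve its assembly and stability, ran from -0.12 (Ndufa1) to 0.19 (Ndufa6). Ndufa6 had the highest difference of all 81 members. Its levels were -0.060, 0 and 0.21 in Batf+/+ cells and 0.19, 0.15 and 0.38 in Batf-/- cells (difference 0.19 ± 0.099 SE, limma adjusted p = 0.791). Each Batf-/- array lay above the Batf+/+ array of the same number, but Batf+/+ array 3 exceeded Batf-/- arrays 1 and 2. Ndufa1, a small membrane subunit, had -0.074, 0 and 0.095 against -0.16, -0.12 and -0.047 (difference -0.12 ± 0.078, limma adjusted p = 0.917). Only the lowest Batf+/+ value fell within its Batf-/- range. Ndufa3 had the next highest difference (0.082 ± 0.075), and it came from 1 of its 3 probe sets, at 0.22, while the others were at 0.000078 and 0.026. Ndufa4, named after complex I but since assigned to complex IV, had levels of 0, -0.0041 and 0.15 against -0.060, -0.13 and 0.10 (difference -0.078 ± 0.089). Both Ndufa4 and Ndufa4l2 (0.077 ± 0.14) are counted with complex I here by name alone. With the probe sets of a gene averaged, the arrays of the genotypes overlapped in each of the 35 genes of complex I, while in 12% of all genes they did not.

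Complex II, succinate dehydrogenase, is both a citric acid cycle enzyme and an entry point of electrons, and all of its subunits are encoded in the nucleus. All 4 lay between -0.048 and 0.050. Sdha, the catalytic flavoprotein, had levels of 0.089, -0.031 and -0.032 in Batf+/+ cells and 0.10, 0.049 and 0.022 in Batf-/- cells (difference 0.050 ± 0.075 SE, 95% interval -0.12 to 0.22). Its 4 probe sets went both ways, with -0.031, -0.025, 0.16 and 0.10. Sdhb, the iron-sulphur subunit, had -0.014, 0 and 0.18 against -0.094, -0.057 and 0.17 (-0.048 ± 0.098). The genotypes overlapped in both. The membrane anchors Sdhc and Sdhd differed by 0.045 ± 0.075 and 0.0081 ± 0.083. The median of the complex was 0.027, and it was -0.010 without both arrays numbered 3. Without probe sets whose names end in x_at, s_at or a_at, 3 genes were left, with a median of -0.038.

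Complex III, the cytochrome bc1 complex, contained a pair of genes whose arrays did not overlap between genotypes, in opposite directions. That is 2 of its 8 genes (25%), against 12% of all genes. Uqcrc1, a core subunit, had levels of -0.046, 0 and 0.030 in Batf+/+ cells and of -0.18, -0.15 and -0.058 in Batf-/- cells. All Batf-/- arrays were below all Batf+/+ arrays, but the difference was small (-0.12 ± 0.073 SE, 95% interval -0.29 to 0.044, limma adjusted p = 0.877). Uqcrfs1, the Rieske iron-sulphur protein that moves electrons to cytochrome c1, had 0, -0.051 and 0.00071 against 0.084, 0.026 and 0.017, all higher, with a difference of 0.059 ± 0.070. The small subunits Uqcr11 (-0.039) and Uqcr10 (0.055) had overlapping arrays, and the 3 probe sets of Uqcr10 ran from -0.054 to 0.16. The complex had 5 members above 0 and 3 below, with a median of 0.018, which fell below 0 when Batf+/+ array 1 (-0.016) or Batf-/- array 3 (-0.0077) was left out.

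Complex IV, cytochrome c oxidase, has subunits that are used in most tissues and isoforms known mainly from muscle, lung, testis or other tissues, and the members with the lowest differences were such isoforms. The 10 general members ran from -0.073 (Cox6a1) to 0.067 (Cox7c), with a median of 0.016. Cox4i1, the regulatory subunit that binds ATP, had -0.046, 0 and 0.11 in Batf+/+ cells and -0.0057, 0.021 and 0.098 in Batf-/- cells, overlapping throughout (difference 0.017 ± 0.077 SE, 95% interval -0.16 to 0.19). Cox5a, which helps hold that subunit, differed by 0.015 ± 0.080. The 7 tissue isoforms ran from -0.22 to 0.14, with 3 above 0. Arrays did not overlap in 2 of the 17 genes of complex IV (11.8%, against 12% of all genes), both of them tissue isoforms. The median of complex IV as a whole was 0.015, and it turned negative when Batf+/+ array 1 (-0.031) or Batf-/- array 3 (-0.037) was left out.

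Cox7a1, the isoform of heart and skeletal muscle, had the lowest difference of all members and the lowest adjusted p. Its levels were -0.065, 0 and 0.041 in Batf+/+ cells and -0.27, -0.14 and -0.26 in Batf-/- cells, so the arrays did not overlap (difference -0.22 ± 0.077 SE, 1.16-fold lower, limma adjusted p = 0.430). Over the alternatives its adjusted p was lowest with the replicate block, at 0.233, and 0.903 without both arrays numbered 3. Cox6b2, the testis isoform, had 0, -0.17 and 0.20 against -0.18, -0.23 and -0.21 (-0.21 ± 0.099, limma adjusted p = 0.713). Its Batf-/- values were all lower, by a narrow margin below the lowest Batf+/+ array. Cox6a2, the muscle isoform, had -0.19, 0.12 and 0 against -0.052, 0.32 and 0.088, overlapping (0.14 ± 0.12). Cox4i2 (-0.078 ± 0.087), Cox7b2 (0.040 ± 0.10), Cox8b (0.034 ± 0.13) and Cox8c (-0.013 ± 0.13) overlapped too. Since levels are relative, the arrays do not tell whether these isoforms were detected in Treg cells at all. The 7 muscle markers measured, which include Ckm and Acta1, had a median difference of 0.015, with 0 called (1.14% of all genes). They went both ways, from -0.17 (Acta1) to 0.21 (Tnnc2). In 1, Tnnt3 (0.16), the unadjusted p was below 0.05 (7.69% of all genes) and the arrays did not overlap (12% of all genes). With the replicate block 3 of the 7 had an unadjusted p below 0.05 (12.5% of all genes).

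ATP synthase had 12 of its 17 members below 0 and a median log2 difference of -0.019, within a range of -0.070 to 0.11. That median was above 0 without Batf+/+ array 3 (0.022) or Batf-/- array 1 (0.0035) or 2 (0.010). Both ends of that range were subunits of F1, the catalytic head. Only in these 2 genes did the arrays not overlap (11.8% of the complex, against 12% of all genes). Atp5b, the catalytic beta subunit, had 0.0065, -0.039 and 0 in Batf+/+ cells and -0.069, -0.10 and -0.070 in Batf-/- cells, all lower (difference -0.070 ± 0.069 SE, 95% interval -0.23 to 0.086). Atp5c1, the gamma subunit that turns inside the head, had -0.030, 0 and -0.0018 against 0.088, 0.054 and 0.15, all higher (0.11 ± 0.071, limma adjusted p = 0.906). Its probe sets gave 0.025, with overlapping arrays, and 0.19. The value without the former, whose name ends in s_at, was 0.19. Atp5a1, the alpha subunit, which pairs with beta in the same ring, had -0.14, 0.00047 and 0.017 against -0.037, -0.016 and -0.097 (-0.0092 ± 0.077), and its genotypes overlapped. Its 3 probe sets disagreed: 1423111_at (-0.075) and 1449710_s_at (-0.045) were lower on all Batf-/- arrays than on all Batf+/+ arrays, while 1420037_at, which had -0.44 on Batf+/+ array 1, differed by 0.093.

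The other parts of ATP synthase stayed closer together. The 3 genes for the c subunit of the rotor ring, whose mature proteins are known to be the same, gave -0.046 ± 0.078 (Atp5g1), 0.015 ± 0.091 (Atp5g2) and -0.041 ± 0.075 (Atp5g3). The 4 genes of the peripheral stalk, which holds the head still, ran from -0.034 (Atp5j) to 0.037 (Atp5o). The 5 small membrane subunits ran from -0.039 (Atp5md) to 0.069 (Atp5mpl).

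Across all complexes the genotypes did not overlap in 6 members, which are Cox7a1, Cox6b2, Uqcrc1, Uqcrfs1, Atp5b and Atp5c1. That is 7.41% of the members, against 12% of all genes (6.55% lower and 5.5% higher), and the difference between these shares was not tested. Of the 6, there were 4 lower and 2 higher in Batf-/- cells.

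The members varied between arrays, and their median level was highest on the array numbered 3 in both genotypes. How the variation divides between array number and genotype was not tested. The members' median level was -0.042, 0 and 0.11 on Batf+/+ arrays 1, 2 and 3 and -0.035, -0.034 and 0.12 on Batf-/- arrays 1, 2 and 3. The arrays numbered 3 thus stood above the others in both genotypes. The median of all genes was -0.029, 0.019 and 0.022 on the Batf-/- arrays. On the Batf+/+ arrays it was 0, 0 and 0, but there the centring on the middle array holds it near 0, so it gives no comparison. In 58 of the 81 members (71.6%) array 3 was the highest of its genotype in both genotypes, against 22.4% of all genes. The same held for 28 of 35 genes of complex I, 6 of 8 of complex III, 9 of 17 of complex IV and 14 of 17 of ATP synthase, but for 1 of 4 of complex II. Within ATP synthase it held for all 3 c subunit genes, all 4 of the peripheral stalk and all 5 small membrane subunits, and for 2 of the 5 of F1.

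**Figure D2:**
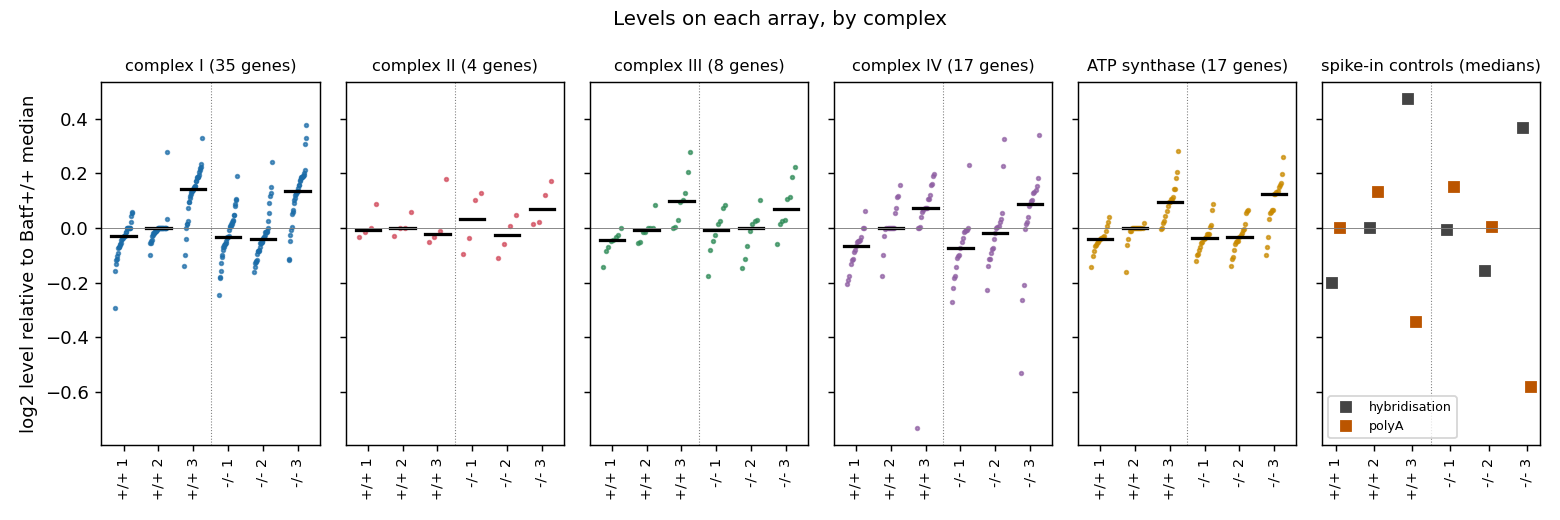
Log2 level, with the middle Batf+/+ array of each probe set at 0 (vertical axis), on each of the 6 arrays (horizontal axis; +/+ and -/- are the genotypes). Points are genes, bars are their medians, and the right panel gives the medians of the spike-in controls; in complexes I, III and IV and in ATP synthase the bars of both arrays numbered 3 are the highest of their genotype.

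The size of this shift was alike in the genotypes. Array 3 exceeded the mean of arrays 1 and 2 by a median of 0.15 over the members in Batf+/+ cells and of 0.13 in Batf-/- cells, against 0.034 and 0.032 over all genes. Across the 81 genes the shift in Batf+/+ cells and that in Batf-/- cells had a Pearson correlation of 0.73, and across all genes one of 0.41. These are correlations over genes, which share the same 6 arrays and are not independent replicates. The labels do not say what the number stands for. Control transcripts added to every sample moved with it: all 18 probe sets of the hybridisation controls bioB, bioC, bioD and cre were highest on array 3 of both genotypes, with medians of -0.20, 0 and 0.47 on the Batf+/+ arrays and -0.0065, -0.16 and 0.37 on the Batf-/- arrays. In turn, 24 of 27 probe sets of the polyA controls were lowest there, with medians of -0.34 and -0.58 on the arrays numbered 3. The part of these differences in the members' shift was not tested. The 3′ to 5′ difference of the Gapdh control lay between -0.021 and 0.076 on all arrays. That of the beta actin control lay between -0.032 and 0.11, with the highest value on Batf-/- array 2.

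Comparing arrays of the same number gave no common direction either. The median difference over the members was 0.022 for arrays 1, -0.023 for arrays 2 and -0.0077 for arrays 3, with 47, 29 and 37 of the 81 genes higher in Batf-/- cells. Without both arrays numbered 3, an alternative chosen after the arrays were compared, 0 members were called, against 0.654% of all genes, and 0 had an unadjusted p below 0.05 (6.77% of all genes). Some markers of cell types that the isolation of CD4+ human CD2+ cells should remove moved with Batf-/- array 3. The 5 measured B cell markers had a median level of 0.34 there and of at most 0.095 on the other arrays, but Pax5 was at -0.082 and Cd22, at 1.76 there, was already at 0.52 and 0.43 on Batf-/- arrays 1 and 2. The 7 myeloid markers had a median of 0.19 on that array and of at most 0.090 on the others, with Lyz2 at 0.59 but Itgax at -0.13. The NK cell markers went both ways there, with Eomes at 0.84, Ncr1 at -0.090 and Klra8 at -0.12. In these lists 0 genes passed the threshold between genotypes, where 1.14% of all genes did. The part of these markers in the members' values was not tested.

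**Figure D3:**
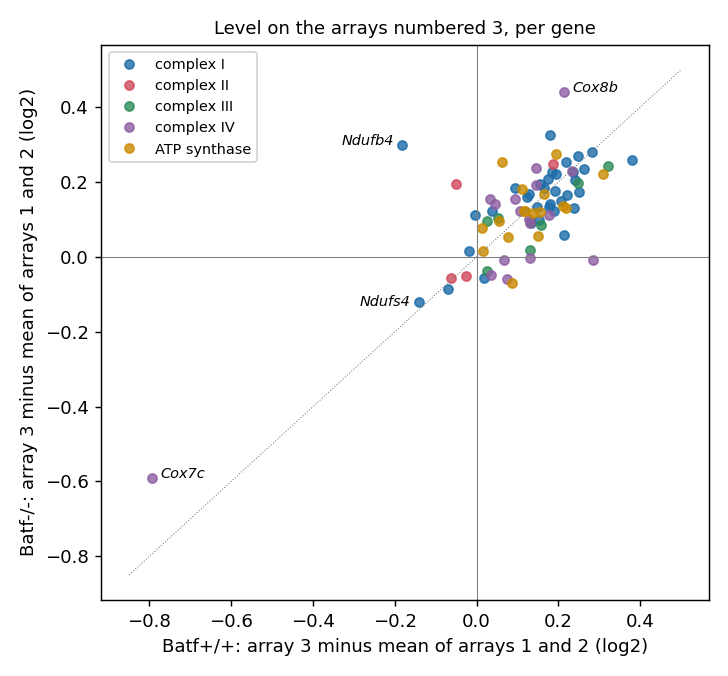
Level on array 3 minus the mean of arrays 1 and 2, in log2 units, in Batf+/+ cells (horizontal axis) and Batf-/- cells (vertical axis) for the 81 genes, coloured by complex; the dotted line marks equal shifts. Most genes lie in the upper right, with medians of 0.15 and 0.13, and Cox7c lies far to the lower left at -0.79 and -0.59.

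A few members ran against this pattern. In 3 of the 81, Cox7c, Ndufs4 and Sdha, array 3 was the lowest of its genotype in both genotypes (13.3% of all genes), which in Sdha held for 1 of its 4 probe sets. Cox7c, a small subunit of complex IV, had the widest spread of all members, with 0.063, 0.056 and -0.73 in Batf+/+ cells and 0.23, -0.11 and -0.53 in Batf-/- cells. Its difference between genotypes was 0.067 ± 0.24 (SE). Both of its probe sets showed the low values, at -0.83 and -0.64 on Batf+/+ array 3 and at -0.63 and -0.43 on Batf-/- array 3.

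In other genes the probe sets disagreed. Of the 81 genes, 48 had over 1 probe set, and the median span of their log2 differences was 0.063. The widest span was that of Cox5b, which encodes a zinc-binding subunit of complex IV, with 6 probe sets between -0.028 and 0.25. Its probe set 1448514_at had 0, -0.029 and 0.12 in Batf+/+ cells and 0.17, 0.33 and 0.33 in Batf-/- cells, all higher (difference 0.25 ± 0.088 SE), but its limma adjusted p over all probe sets was 0.567. The other 5 lay between -0.028 and 0.032, and among them 1436149_at was low on both arrays numbered 3, at -0.35 and -0.24, where the remaining 4 were above 0. Ndufs4, a complex I subunit whose loss is known to cause Leigh syndrome, was named after its values were seen. Its low array 3 came from probe set 1459760_at, at -0.70 and -0.52, while 1448959_at was at 0.13 and 0.13 on the same arrays. Tested singly, 0 of the 164 probe sets were called (0.713% of all probe sets), and 2 had an unadjusted p below 0.05 (6.9% of all probe sets), which were those of Cox7a1 and 1448514_at.

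**Figure D4:**
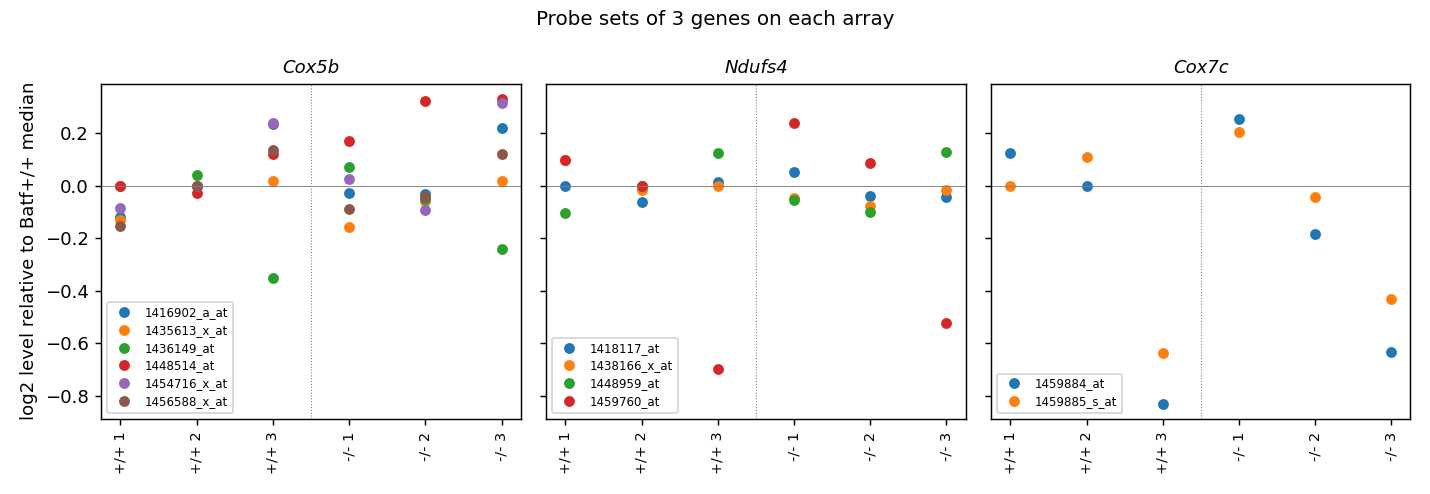
Log2 level, with the middle Batf+/+ array of each probe set at 0 (vertical axis), of each probe set of Cox5b, Ndufs4 and Cox7c on the 6 arrays (horizontal axis). In Cox5b and Ndufs4 1 probe set each falls on the arrays numbered 3, to -0.35 and -0.70 on Batf+/+ array 3, and in Cox7c both do.

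In the other mitochondrial gene lists 0 genes were called as well, where 1.14% of all genes were. At that share, lists of these sizes would hold few called genes or none. Of 18 listed symbols that the name rule leaves out, some of them older symbols of members, 2 were measured as single genes. Ndufab1, the acyl carrier protein of complex I, differed by 0.061 ± 0.095 (SE), and Cyc1, the cytochrome c1 of complex III, by -0.028 ± 0.083. Of 42 measured assembly factors 0 were called, with a median of 0.021, and values ran from -0.12 (Ndufaf3) to 0.18 (Sdhaf1). Of 26 measured electron carriers, ubiquinone enzymes and nucleotide carriers 0 were called, with a median of 0.039, and values ran from -0.32 (Gpd2) to 0.26 (Cyct). The genotypes did not overlap in 4 of the 26 (15.4%, against 12% of all genes), 3 higher and 1 lower in Batf-/- cells. Cycs, which encodes cytochrome c, was among the higher (0.20 ± 0.072, limma adjusted p = 0.439). Of 23 measured citric acid cycle and pyruvate dehydrogenase genes 0 were called, with a median of -0.025. Of 22 measured factors of mitochondrial gene expression and biogenesis, which include Tfam, Nrf1 and Gabpa, 0 were called, with a median of 0.020.

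Mitochondrial ribosomal proteins, which make the subunits encoded in mitochondria, had 0 of 76 called and a median of 0.0074. Their lowest member was Mrps6, named after its value was seen, at -0.35 with a limma adjusted p of 0.0755. Their median level was also raised on the arrays numbered 3, to 0.12 and 0.052. Of the 76, 42 were highest there in both genotypes (55.3%, against 22.4% of all genes). At an unadjusted p below 0.05 these 6 lists held 0, 1, 3, 3, 0 and 3 genes in the order given, where 7.69% of all genes did. With the replicate block or array weights 0 were called in any of them, against 1.61% and 1.52% of all genes.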

How the data were processed

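Total RNA of 6 samples, 3 per genotype, was put on expression arrays after biotin labelling with a 3′ kit, per the labels. The deposited values are taken as log2 values that the authors computed by RMA (named in the submitters' processing notes, without version or log base). In all 45101 probe sets the median of the Batf+/+ arrays is 0, so the values had been set relative to their median, a step no label describes. This removes absolute levels, and no filter on low signal could be applied. The 64 control probe sets were kept out of the tests. Genes were taken from the platform annotation (34945 probe sets with 1 gene, 932 with several), and probe sets of a gene were averaged.

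Genotypes were compared with limma 3.58.1 in R 4.3.3 (lmFit, eBayes, genotype as the only term), Benjamini-Hochberg adjusted over all 18193 genes, or 34945 probe sets, and called below 0.05. The fit was tested on simulated data. The number of arrays limits the precision. Genes named are Batf, the 2 highest and 2 lowest members of each complex, subunits and isoforms fixed whatever their values, and the 3 members whose probe sets spread most. Where another gene is named for its value, or as the end of a range, it was chosen after the values were seen. The members and lists were chosen with earlier results of these data known.

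The same numbers occur in the titles of both genotypes. Across genes, the deviations (level minus group mean) of arrays with the same number had correlations of 0.41, 0.15 and 0.41. All exceed 0.1, so by these values, and not by the labels, the numbers pair the arrays. The values given are nevertheless from the fit with genotype alone, fixed as the primary one, and the fit with the number as a block was an alternative, as were other normalizations, probe set rules, array weights and leaving out arrays. Promoter windows were searched with Python 3.11.15, and the NRF1 letters were shortened by 1 base after a first search.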

Additional observations from a re-analysis of the deposited data

How the results depend on the processing

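Under all 13 alternatives the count of members called was 0 in either direction, for genes and, in the 12 where they were tested, for probe sets. The lowest adjusted p of a member gene was 0.233, for Cox7a1 with the number as a replicate block, where the median over all members was 0.00045 as without it. The block changed no call of a member. The median log2 difference over the members ranged from -0.049 without Batf-/- replicate 3 to 0.044 without Batf+/+ replicate 3. Leaving out 1 array gave -0.048 to 0.047 for complex I, -0.016 to 0.068 for complex III, -0.037 to 0.046 for complex IV and -0.063 to 0.022 for ATP synthase, so the sign of each of these medians depends on the arrays used. The median of complex II moved beyond the spread of its array medians. It was -0.038 without probe sets whose names end in x_at, s_at or a_at, where 3 of its genes are left. Without both arrays numbered 3 it was -0.010. Of 411 values of the 32 named members under the alternatives, 4 moved by more than the SD between arrays. These were Atp5b after quantile normalization (-0.036) and Ndufa3 with the median of its probe sets (0.0090). The others were Atp5c1 (0.19) and Cox5b (0.14) without probe sets of those endings. Without those probe sets 65 of the 81 genes remained, so 16 rest on probe sets of those endings alone. Batf remained called under all 13. Signal over background is not known from these values.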
